A study of Homo sapiens with 6 samples.

Results

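Messenger RNA was compared between NCI-H1299 cells kept for 48 h with 25 µM of 6p and cells kept for 48 h with vehicle (0.1% DMSO), for the genes of mitochondrial fatty acid synthesis and protein lipoylation. The 10 genes were taken by symbol from the deposited table of 16070 genes: ACSF3, MCAT, NDUFAB1, OXSM, HSD17B8, CBR4, MECR, LIPT2, LIAS and LIPT1. All 10 were found, and all 10 passed the filter on low values (0.5 FPKM or more on average across the 6 libraries). NCI-H1299 is an established line from a human lung carcinoma of the non-small cell class, here grown with serum, and 6p is a derivative of platensimycin, an antibiotic that blocks chain elongation in bacterial fatty acid synthesis. There were 3 libraries in each group, called control and 6p below. One label field calls the controls untreated, while the protocol gives them vehicle. A single cell line, dose and time was studied, and the protocol calls the samples independent without saying whether they were separate cultures, so the p-values measure only the spread between these samples, which may be technical.

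Mitochondria hold their own fatty acid synthesis pathway, built like the bacterial one from separate enzymes around a small acyl carrier protein, unlike the single large cytosolic enzyme FASN. Each round joins a malonyl unit to a growing chain, reduces it, removes water and reduces it again. Its best known product is the octanoyl chain from which lipoic acid is made. Lipoic acid is built in place on target proteins and is the swinging arm of the pyruvate, 2-oxoglutarate and branched-chain dehydrogenases and of glycine cleavage. In the annotation deposited with the table, 9 of the 10 genes carried the term mitochondrial matrix, 7 were listed under the KEGG pathway fatty acid biosynthesis and 3 under lipoic acid metabolism, the latter being all 3 genes listed for that pathway.

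Some of these genes start beside a gene read in the other direction, and the sequences below show how closely. LIAS, the lipoyl synthase, and RPL9, which encodes a protein of the large ribosomal subunit, start 134 bp apart in RefSeq on GRCh38.p14. LIPT1, a lipoyltransferase, and TSGA10, a testis-associated gene, start on neighbouring bases, 1 bp apart. Each sequence runs 5′ to 3′ on the strand of the first gene, from 250 bases before its start to 50 bases after, and the capitals mark the bases from the partner's start through the gene's own start.
LIAS, chr4:39458806-39459105, plus strand: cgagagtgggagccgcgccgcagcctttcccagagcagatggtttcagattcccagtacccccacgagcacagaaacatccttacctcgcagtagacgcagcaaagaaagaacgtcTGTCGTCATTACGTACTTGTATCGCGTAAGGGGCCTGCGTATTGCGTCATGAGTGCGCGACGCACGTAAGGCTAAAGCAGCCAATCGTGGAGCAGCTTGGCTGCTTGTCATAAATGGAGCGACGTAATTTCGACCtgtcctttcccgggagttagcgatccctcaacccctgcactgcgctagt
LIPT1, chr2:99154717-99155016, plus strand: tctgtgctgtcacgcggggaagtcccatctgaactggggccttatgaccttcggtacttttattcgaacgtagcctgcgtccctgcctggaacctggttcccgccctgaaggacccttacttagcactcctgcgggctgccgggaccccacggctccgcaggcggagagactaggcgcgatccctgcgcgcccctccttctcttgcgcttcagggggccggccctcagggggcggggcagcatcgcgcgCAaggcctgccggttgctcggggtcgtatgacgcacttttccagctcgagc

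Such a window was at hand for 9 of the 10 genes, OXSM being the one without. On either strand, 0 of these 9 genes held the core palindrome of the NRF1 motif, which 1.24% of all 35116 promoter windows held. The C/EBP-ATF composite element TGATGNAA, found in 3.62% of all windows, was held by 0 of the 9. The ERR motif TGACCTTG and the YY1 motif ATGGCGGC, in 1.28% and 3.0% of windows, were likewise held by 0. These counts say only that the letters are not in these windows.

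Of the 10 genes, 4 rose with 6p and 0 fell: HSD17B8, LIAS, MECR and ACSF3, each 1.3- to 1.6-fold on mean FPKM. Values are FPKM, fragments scaled by the gene's length and the library's total. A gene was taken to have changed where limma gave a Benjamini-Hochberg adjusted p under 0.05, over all 11745 genes tested, on log2(FPKM + 1). That scale understates the change of genes with low values. By this rule 46.5% of all tested genes changed, 21.3% being higher and 25.1% lower. The genes' median log2 fold change was 0.24, against -0.04 for all tested genes, and at an unadjusted p under 0.05 the numbers higher and lower were 5 and 0, where 24.5% and 30.1% of all tested genes were. In 5 of the 10 every 6p library lay above every control library, which held for 26.0% of all tested genes, and 0 lay below, against 31.5%. The higher genes belonged to malonyl supply, chain reduction and lipoyl synthesis, and the other 6 did not pass.

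**Figure D1:**
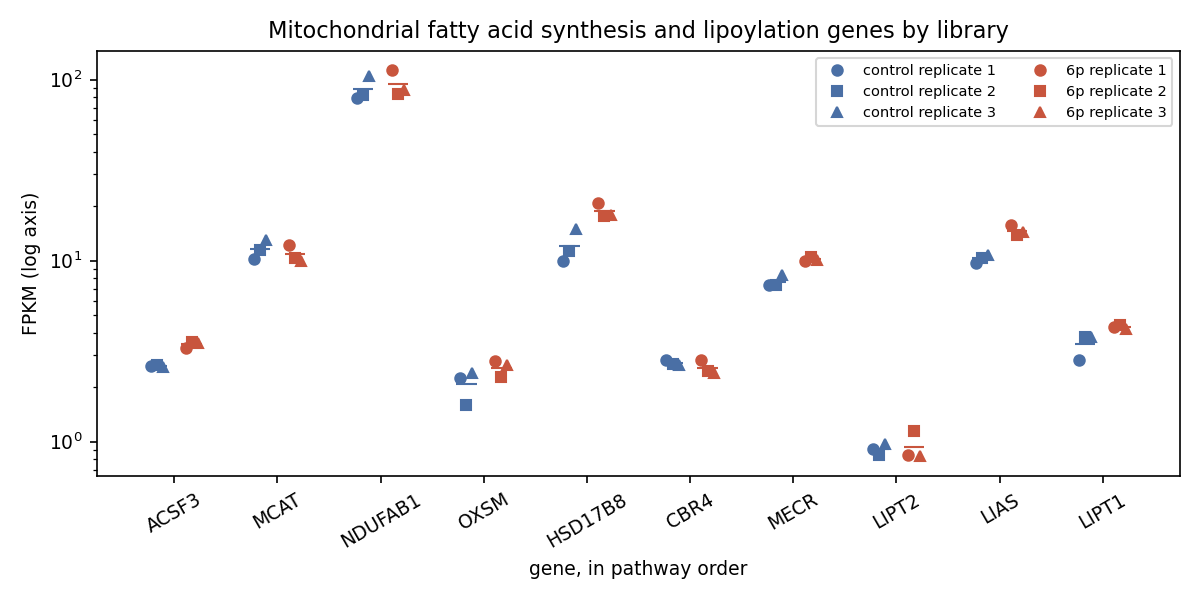
FPKM (log axis) of the 10 genes in each library, in pathway order, with control libraries in blue, 6p libraries in red and the mean of each group as a line. The 6p points lie above all control points for ACSF3, HSD17B8, MECR, LIAS and LIPT1, and the groups overlap for the other 5.

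ACSF3 makes malonyl-CoA from malonate in the mitochondrial matrix. It read 2.62, 2.66 and 2.59 FPKM in control replicates 1 to 3 and 3.28, 3.56 and 3.50 FPKM in 6p replicates 1 to 3. The 3 controls were nearly alike and all 6p libraries were above them. Its mean went from 2.62 ± 0.037 to 3.45 ± 0.145 FPKM (SD, with n = 3 per group here and for all such pairs), a log2 fold change of 0.29 ± 0.07 (SE, as for all that follow; adjusted p = 0.0121 in limma). The call did not survive conversion to TPM (0.19, adjusted p = 0.221) or the loss of control replicate 2 (0.30, adjusted p = 0.0514).

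MCAT loads the malonyl group onto the acyl carrier protein. Its control values were 10.3, 11.4 and 13.0 FPKM, and its 6p values 12.3, 10.3 and 9.96 FPKM, so the groups overlapped in part, with control replicate 3 the highest library and 6p replicate 3 the lowest. The log2 fold change was -0.08 ± 0.11, with a 95% interval from -0.33 to 0.17 (adjusted p = 0.55 in limma).

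NDUFAB1 is the acyl carrier protein itself and also a subunit of respiratory complex I. It read 79.1, 82.1 and 105 FPKM in control and 113, 83.7 and 88.1 FPKM in 6p. The highest library of each group, control replicate 3 and 6p replicate 1, were the same 2 libraries in which short genes as a class read high, and NDUFAB1 was the shortest of the 10 genes at 773 nt. Its log2 fold change was 0.10 ± 0.14 (95% interval -0.23 to 0.42, adjusted p = 0.608 in limma). It turned to -0.23 once each library's trend of values with gene length was removed, and there it passed as lower (adjusted p = 0.005). Without the 2 libraries it was 0.09 (adjusted p = 0.107), in a fit where short genes still read higher in 6p.

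OXSM is the condensing enzyme of the pathway, the mitochondrial counterpart of the bacterial enzymes that platensimycin inhibits. It read 2.26, 1.60 and 2.40 FPKM in control and 2.78, 2.27 and 2.65 FPKM in 6p. Control replicate 2 was lowest, and 6p replicate 2 lay within the range of the controls. Its log2 fold change was 0.22 ± 0.12, with a 95% interval from -0.05 to 0.49 (adjusted p = 0.16 in limma). It did not pass in any of the 19 alternatives that tested it (adjusted p from 0.0608 to 0.543). Between 115 and 217 fragments were counted for OXSM in each library.

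HSD17B8 and CBR4 are the α and β subunits of the ketoacyl reductase, which takes the first reducing step. HSD17B8 read 9.93, 11.4 and 15.0 FPKM in control and 20.7, 17.7 and 17.8 FPKM in 6p. Control replicate 3 was the highest control and 6p replicate 1 the highest 6p library, with no overlap between groups. Its mean went from 12.1 ± 2.61 to 18.8 ± 1.70 FPKM and its log2 fold change was 0.61 ± 0.14, the highest of the 10 genes in the values as deposited (adjusted p = 0.00888 in limma). HSD17B8 is short, at 977 nt, and its change was 0.32 once the length trend was taken out (adjusted p = 0.00582 in limma). That was below those of LIAS and MECR, and of ACSF3 at the length behind its FPKM. Without control replicate 3 and 6p replicate 1 the change of HSD17B8 was 0.69, in a fit where short genes still read higher in 6p.

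CBR4, the partner subunit, read 2.83, 2.69 and 2.64 FPKM in control and 2.83, 2.47 and 2.40 FPKM in 6p. Its groups overlapped, through 6p replicate 1, and its log2 fold change was -0.06 ± 0.08 (95% interval -0.25 to 0.12, adjusted p = 0.547 in limma). It was 0.0073 after the length trend was taken out. The ratio of HSD17B8 to CBR4 FPKM was 3.51, 4.23 and 5.67 in control and 7.32, 7.19 and 7.43 in 6p. The ratio was higher in every 6p library than in any control library, and HSD17B8, at 977 nt, is much the shorter gene beside CBR4, at 4497 nt.

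MECR takes the last reducing step of each round. It read 7.32, 7.30 and 8.35 FPKM in control and 9.91, 10.4 and 10.1 FPKM in 6p. The 6p libraries lay close together and above all controls. The log2 fold change of 0.37 ± 0.08 (adjusted p = 0.00655 in limma) was nearly the same with the length trend removed, at 0.35. The call was lost after rescaling to TPM (0.22, adjusted p = 0.0976).

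LIPT2 moves the finished octanoyl chain from the acyl carrier protein to the glycine cleavage H protein. It read 0.909, 0.849 and 0.967 FPKM in control and 0.845, 1.15 and 0.830 FPKM in 6p. 6p replicates 1 and 3 lay below all controls and 6p replicate 2 above them. LIPT2 had the lowest level of the 10 genes, with 33 to 48 fragments per library, at which counting alone gives an error of up to 17.4%. Its 95% interval ran from -0.17 to 0.22 (adjusted p = 0.856 in limma). These bounds are on log2(FPKM + 1), which at so low a level shrinks changes. It was at -0.06 after the length trend was taken out.

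LIAS, which inserts the sulfur atoms that turn octanoyl into lipoyl, read 9.75, 10.4 and 10.8 FPKM in control and 15.8, 13.8 and 14.3 FPKM in 6p. All 6p libraries lay above all controls. Its mean went from 10.3 ± 0.522 to 14.6 ± 1.03 FPKM, a log2 fold change of 0.47 ± 0.08 (adjusted p = 0.00247 in limma). The change was 0.50 with the length trend removed and 0.45 without control replicate 3 and 6p replicate 1. LIAS and HSD17B8 passed in all 20 alternatives.

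LIPT1 passes lipoyl groups on to the dehydrogenase complexes. It read 2.82, 3.78 and 3.80 FPKM in control and 4.31, 4.40 and 4.20 FPKM in 6p. Control replicate 1 was low, and the 6p libraries lay close together, above all controls. The log2 fold change of 0.25 ± 0.10 did not pass (95% interval 0.02 to 0.49, adjusted p = 0.075 in limma). It passed as higher without control replicate 3 (adjusted p = 0.0468) and without both libraries that stood apart (0.31, adjusted p = 0.0144). The latter gave 5 of the 10 genes higher and 0 lower, where 30.3% of all tested genes were higher and 35.6% lower.

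**Figure D2:**
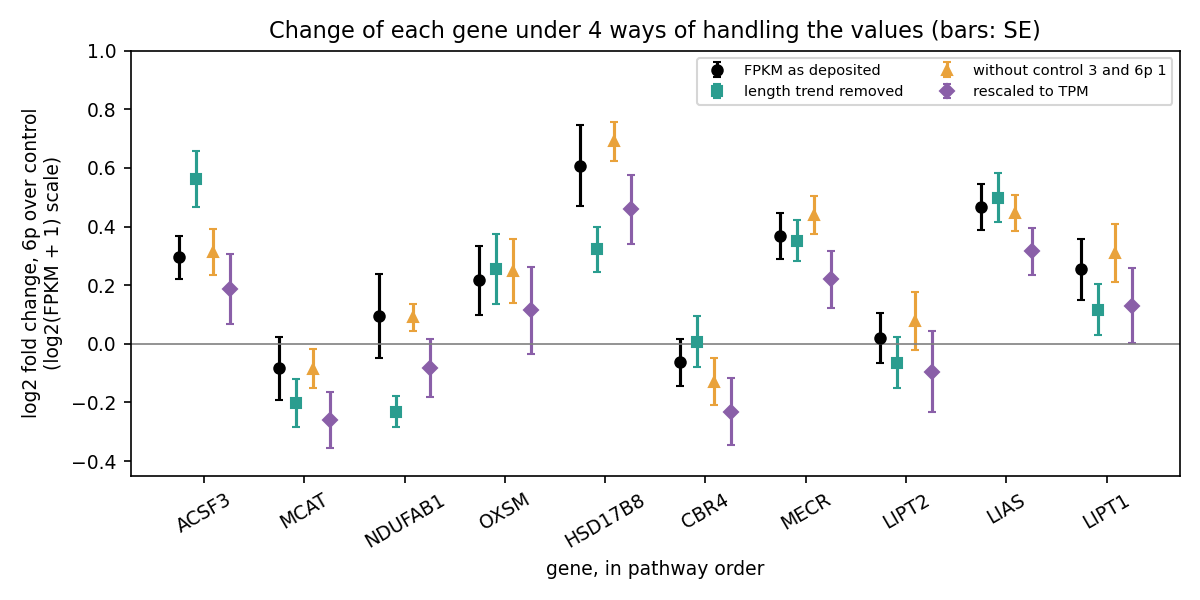
Log2 fold change of 6p over control (bars show the SE) for the 10 genes in pathway order, with the FPKM as deposited, with each library's length trend removed, without control replicate 3 and 6p replicate 1, and after rescaling to TPM. HSD17B8, LIAS, MECR and ACSF3 lie above 0 in all 4, while NDUFAB1 lies at 0.10 as deposited and -0.23 with the length trend removed.

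In control cells the order of the per-length levels (mean FPKM) was NDUFAB1 (88.7), HSD17B8 (12.1), MCAT (11.6), LIAS (10.3), MECR (7.66), LIPT1 (3.47), CBR4 (2.72), ACSF3 (2.62), OXSM (2.09) and LIPT2 (0.908). The acyl carrier protein transcript thus stood far above those of the enzymes it serves. Neighbours whose control ranges overlapped were HSD17B8 and MCAT, MCAT and LIAS, LIPT1 and CBR4, and CBR4 and ACSF3. The length behind each FPKM matters for this order. For ACSF3 it was 16124 nt, against 3751 nt for its longest coding transcript in GENCODE release 29, and for OXSM 3909 nt against 1519 nt. Taken over the longest coding transcript, the control means would be 11.3 for ACSF3, 5.37 for OXSM, 4.70 for LIPT1, 3.55 for CBR4 and 2.12 for LIPT2, so the low places of ACSF3 and OXSM rest on the length used, while LIPT2 is lowest on both. ACSF3 had 785 to 1056 fragments per library, more than any other of the 10 genes but NDUFAB1 and, in 6p replicate 1, LIAS.

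Libraries differed by gene length as well as by group. Depth was 16775655 to 19957335 fragments per library. Control replicate 3 and 6p replicate 1, the pair left out together above, were the libraries in which short genes read highest within each group. For the 490 tested genes under 1000 nt, the median log2 deviation from each gene's own mean was -0.31, -0.20 and 0.04 in control replicates 1 to 3 and 0.35, 0.03 and 0.08 in 6p replicates 1 to 3. Their median log2 fold change was 0.30, against -0.22 for the 1658 genes over 8000 nt. Gene length thus moved with the groups, also among the libraries left without control replicate 3 and 6p replicate 1. There the short genes were at -0.31 and -0.20 in control and 0.03 and 0.08 in 6p. Leaving out that pair therefore does not remove the length difference between the groups. After each library's trend was taken out, ACSF3 was at 0.56, OXSM at 0.26, LIPT1 at 0.12 and MCAT at -0.20, beside the values given above for the other genes. The ACSF3 value rests on the 16124 nt behind its FPKM. What it would be at the 3751 nt of its longest coding transcript was not tested. In that fit 4 of the 10 genes were higher and 1 lower (25.5% and 27.9% of all tested genes). After rescaling to TPM, which shifted the median of all tested genes from -0.04 to -0.21, 2 of 10 were higher and 0 lower (13.0% and 34.0% of all tested genes). Relative to those medians MECR stood at 0.41 on the FPKM scale and 0.43 after rescaling, and ACSF3 at 0.33 and 0.40. Of 4 genes taken as markers of the line, the keratins KRT8 and KRT18 and the mesenchymal filament VIM were at 281 FPKM or more in every library, and the GTPase NRAS was at 27.4 to 40.7 FPKM. KRT18 was higher in 6p (0.36 ± 0.12, adjusted p = 0.0349 in limma) and NRAS lower (-0.38 ± 0.09, adjusted p = 0.0091). Over the alternatives the highest adjusted p in limma was 0.276 for KRT18, whose call was thus lost in some, and 0.0463 for NRAS. Of 10 markers of other cell types 7 were listed, with a summed level of 57.4 to 60.1 FPKM in control and 60.1 to 72.1 in 6p, nearly all from CD68, a macrophage and lysosome marker (56.4 to 71.0). PTPRC and PECAM1, which define leukocytes and endothelium, were at most 0.0188 and 0.0407 FPKM. Their part in the results was not tested.

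**Figure D3:**
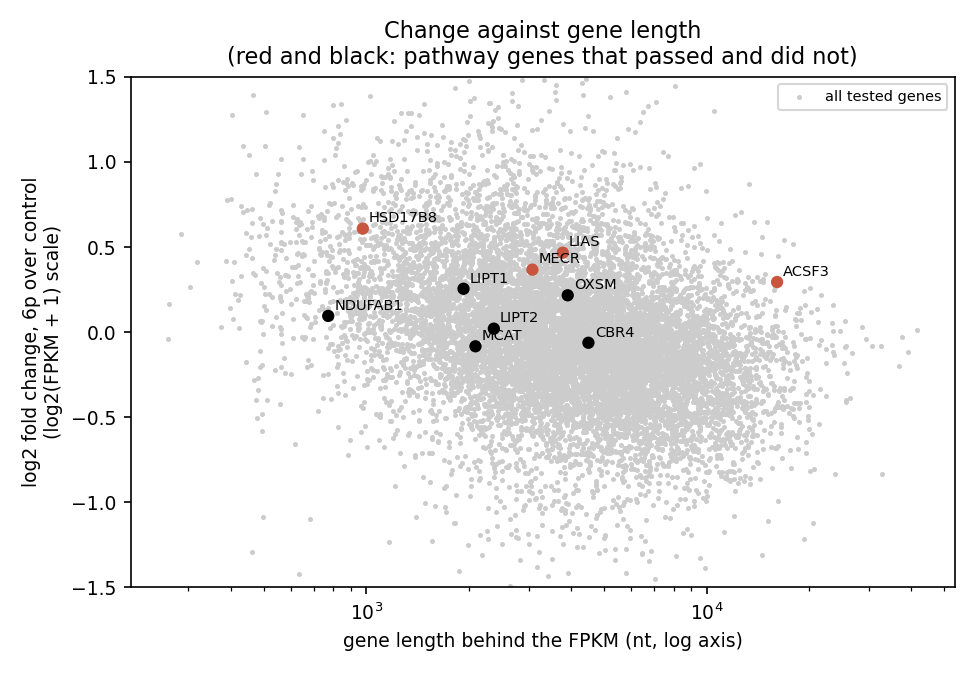
Log2 fold change of 6p over control against the gene length behind the FPKM (nt, log axis), for all tested genes in grey and the 10 pathway genes in red (passed) or black (did not pass). ACSF3, at 16124 nt, was at 0.56 after the length trend was taken out, and NDUFAB1, at 773 nt, was at -0.23. Tested genes beyond a change of 1.5 in either direction (66 genes) are outside the plot.

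Lipoyl groups are carried by a few large complexes of the mitochondrial matrix. Of 22 tested genes of the lipoylated complexes and their regulators, 1 was higher and 8 lower, with a median of -0.15, where 21.3% of all tested genes were higher and 25.1% lower with a median of -0.04. The lower genes numbered 4 without control replicate 1 or without control replicate 2, where 2007 and 1793 of all tested genes were lower. They numbered 5 with the replicate number as a block (1920 of all tested genes) and 14 after rescaling to TPM (3991, or 34.0%). Without 6p replicate 1 the higher genes numbered 3, where 2513 of all tested genes were higher. In the values as deposited 2506 of all tested genes were higher and 2951 lower. DLAT, the pyruvate dehydrogenase subunit that carries lipoyl arms, read 30.5, 29.6 and 28.7 FPKM in control and 19.0, 19.4 and 19.1 FPKM in 6p. Its log2 fold change was -0.60 ± 0.06 (adjusted p = 0.000296 in limma). PDP1, the phosphatase that activates the complex, fell from 39.0 ± 2.98 to 28.6 ± 0.770 FPKM.

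In glycine cleavage the subunits parted. GLDC, the glycine decarboxylase, read 29.1, 27.8 and 27.8 FPKM in control and 12.2, 13.6 and 13.8 FPKM in 6p, a log2 fold change of -1.04 ± 0.07 (adjusted p = 5.14e-05 in limma). AMT, the aminomethyltransferase, read 0.702, 0.463 and 0.991 FPKM in control and 2.89, 3.66 and 2.06 FPKM in 6p, at 1.16 ± 0.17 (adjusted p = 0.00111). GLDC was lower and AMT higher in every 6p library than in any control. The AMT values rest on few fragments, 26, 17 and 38 in control and 115, 129 and 69 in 6p. Named after their values were seen, GCSH, the lipoylated H protein, and DLD, the dehydrogenase shared by all these complexes, were at -0.03 ± 0.13 and -0.06 ± 0.07 and did not pass (adjusted p = 0.859 and 0.532 in limma). The other lower genes, also named after their values were seen, were PDHX, OGDH, PDK3, PDP2 and PDPR, at -0.27, -0.36, -0.31, -0.47 and -0.64. Over the alternatives the highest adjusted p in limma was 0.174 for PDHX, 0.0982 for OGDH and 0.0818 for PDPR, so these calls were also lost in some, and 0.0393 for PDP2. PDK3, a pyruvate dehydrogenase kinase of 13074 nt, was at -0.07 once the length trend was taken out (adjusted p = 0.566). GLDC and GCSH have 1 and 5 pseudogenes in GENCODE release 29, and the handling of reads shared with them is not stated. The same holds for other genes given here, among them NDUFAB1 and LIPT1 (1 pseudogene each), ISCU and HSPA9 (1 each), NFU1 (2) and ISCA1 (5). The markers KRT8 and KRT18 have 50 and 68.

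LIAS needs iron-sulfur clusters. Of 22 tested genes of their assembly and of cofactor supply, 4 were higher and 4 lower, each a smaller share than over all tested genes (21.3% and 25.1%), with a median of 0.17. ISCU, the scaffold on which clusters form, read 21.5, 22.3 and 24.9 FPKM in control and 44.8, 36.8 and 37.0 FPKM in 6p (0.76 ± 0.10, adjusted p = 0.000703 in limma). HSPA9, the mitochondrial member of the HSP70 family that helps transfer clusters, rose from 126 ± 1.77 to 218 ± 5.78 FPKM, and HSCB, its co-chaperone for this task, from 13.1 ± 1.43 to 17.5 ± 1.20 FPKM. The HSCB call was lost once the length trend was taken out (0.16, adjusted p = 0.0573), in TPM (adjusted p = 0.0517) and when control replicate 2 was left out (adjusted p = 0.0523). NFU1, which passes clusters on to LIAS, was higher at 0.36 ± 0.09, named after its values were seen, and its call was lost in TPM (0.20, adjusted p = 0.0595 in limma).

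Among the 4 lower genes, ISCA1, a late-acting assembly factor, fell from 27.5 ± 1.07 to 21.4 ± 0.681 FPKM. Named after their values were seen, NFS1, the desulfurase that supplies the sulfur, IBA57, a late assembly factor, and NUBPL, which serves complex I, were at -0.26, -0.22 and -0.21. Once the length trend was taken out, IBA57 and NUBPL went to -0.04 and 0.04 (adjusted p = 0.718 and 0.714 in limma). The highest adjusted p of NFS1 over the alternatives was 0.0742. The count of higher genes was 8 without control replicate 3 and 10 without it and 6p replicate 1, where 2706 and 3555 (30.3%) of all tested genes were higher. That of lower genes was 1 without control replicate 1, without control replicate 2 and without 6p replicate 3. Over all tested genes the lower numbered 2007, 1793 and 2281 in these fits.

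Of 11 tested partners of the acyl carrier protein, mostly LYR-motif proteins that bind its acylated form, 4 were higher and 1 lower, with a median of 0.11, against 21.3% and 25.1% of all tested genes. Without control replicate 3 the lower genes numbered 2, where 3378 of all tested genes were lower. LYRM1 read 5.73, 7.12 and 6.66 FPKM in control and 12.8, 11.2 and 11.1 FPKM in 6p (0.76 ± 0.10, adjusted p = 0.000655 in limma). ETFRF1, a regulator of the electron transfer flavoprotein, rose from 7.26 ± 0.0917 to 10.4 ± 1.04 FPKM. LYRM9 went from 0.277 ± 0.0144 to 0.815 ± 0.0776 FPKM, and it passed the filter only through its 6p libraries. LYRM7, an assembly factor of respiratory complex III, fell from 6.08 ± 0.384 to 4.35 ± 0.132 FPKM. The other higher gene was SDHAF1, an assembly factor of succinate dehydrogenase, at 0.46 ± 0.10, named after its values were seen. With the length trend removed SDHAF1 was at 0.20. AASDHPPT, which attaches the prosthetic arm of the carrier protein and was also named after its values were seen, was at -0.18 ± 0.07 and did not pass (adjusted p = 0.0609 in limma).

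In malonyl and lipoyl handling, 4 of 8 tested genes were higher and 1 lower, with a median of 0.10, against 21.3% and 25.1% of all tested genes. Without control replicate 1 or 2 the higher genes numbered 2, where 1875 and 1724 of all tested genes were higher. Without 6p replicate 2 or 3 they also numbered 2 (2129 and 1972 of all tested genes). After rescaling to TPM they numbered 1 (1526 of all tested genes, or 13.0%). With a pseudocount of 0.1 or 0.01, or with no filter, they numbered 3 (2488, 2482 and 2661 of all genes in these fits). SIRT5, a mitochondrial desuccinylase and demalonylase, read 3.75, 4.09 and 4.14 FPKM in control and 6.39, 6.64 and 6.00 FPKM in 6p (0.56 ± 0.08, adjusted p = 0.000971 in limma). ABHD11, a mitochondrial hydrolase known to protect the lipoylation of 2-oxoglutarate dehydrogenase, rose from 19.1 ± 1.47 to 25.4 ± 2.36 FPKM, and MMUT, methylmalonyl-CoA mutase, from 9.94 ± 0.273 to 11.9 ± 0.0768 FPKM. Both calls were lost after rescaling to TPM (adjusted p = 0.0726 and 0.478 in limma), and that of MMUT also without any one of control replicates 1 and 2 and 6p replicates 2 and 3 (adjusted p from 0.0615 to 0.0922). ACACA, the main source of malonyl-CoA outside mitochondria, read 16.4, 15.0 and 10.7 FPKM in control and 3.79, 7.06 and 6.36 FPKM in 6p, and FASN, which uses it, read 144, 130 and 105 FPKM in control against 23.8, 39.2 and 38.0 FPKM in 6p. ACACA and FASN were at -1.17 ± 0.21 and -1.90 ± 0.19, and were lower in every 6p library. The other higher gene was SIRT3, a mitochondrial deacetylase, at 0.27 ± 0.10 (adjusted p = 0.0493 in limma), named after its values were seen. Its call lay just within the threshold, so small changes of method can remove it, and it was lost in TPM as well (0.14, adjusted p = 0.314). MLYCD, which degrades malonyl-CoA and was named after its values were seen, was at -0.03 ± 0.08.

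**Figure D4:**
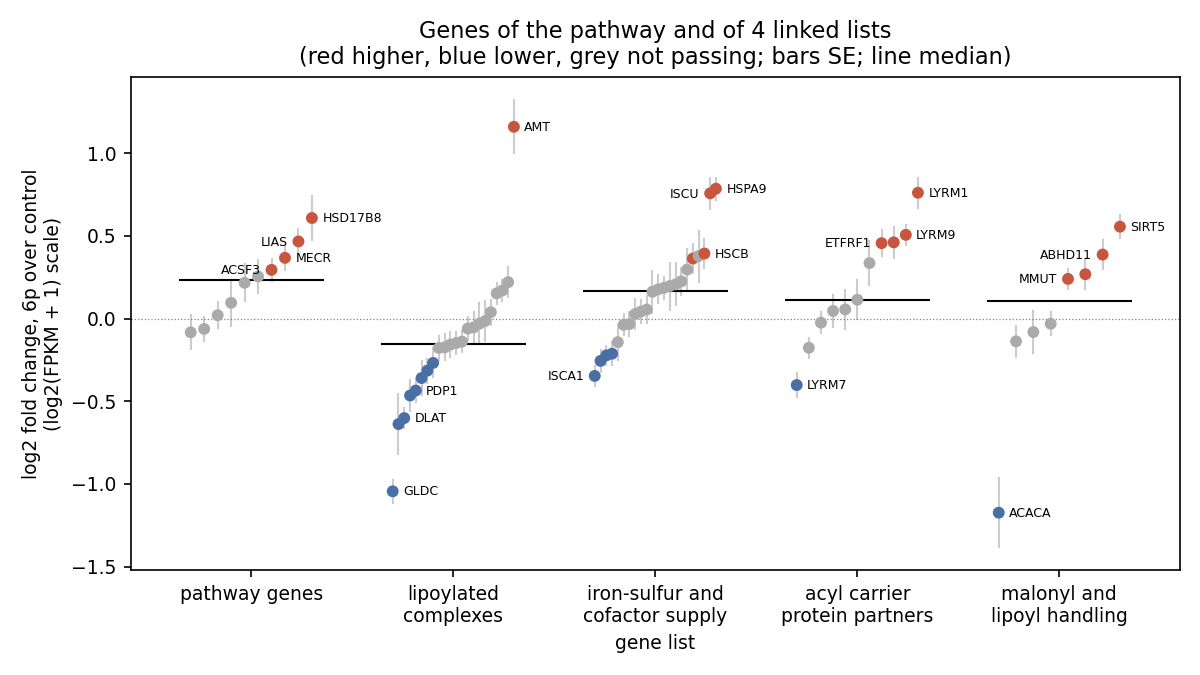
Log2 fold change of 6p over control (bars show the SE) for each tested gene of the pathway and of the 4 linked lists, red where higher, blue where lower and grey where the test was not passed, with each list's median as a line. The pathway genes have 4 red and 0 blue points, and the lipoylated complexes 1 red and 8 blue.

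Genes that share ground with the 10 were compared last, because the kit keeps strand but the sources used here do not say whether the authors' counting used it. RPL9, which starts beside LIAS, read 530, 567 and 725 FPKM in control and 1346, 986 and 979 FPKM in 6p, and both genes of this pair were higher (RPL9 0.86 ± 0.17, adjusted p = 0.00472 in limma). With the length trend removed, RPL9, at 882 nt, was at 0.55. In GENCODE release 29 the longest forms of LIAS (chr4:39458587-39485109) and RPL9 overlap over 363 bp at their starts, and in RefSeq over 0. RPL9 was at 9189 fragments in control replicate 2, where LIAS had 720. What RPL9 fragments could add to LIAS was not tested. LIAS also holds a processed pseudogene on its own strand, AC021148.1, which the table does not list.

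LIPT1 (chr2:99154955-99163157) overlaps MITD1, a gene of the late steps of cell division, over 1731 bp in GENCODE release 29, at their ends. MITD1 rose from 15.1 ± 1.90 to 21.2 ± 1.87 FPKM (0.46 ± 0.11, adjusted p = 0.0086 in limma), and its part in the LIPT1 values was not tested. With the length trend removed MITD1 was at 0.26. AC092587.1 and AC079447.1, on the strand of LIPT1, span it almost wholly and are not listed. TSGA10, whose start adjoins that of LIPT1, was at 0.14 ± 0.07 and did not pass (adjusted p = 0.124). OXSM (chr3:25782917-25794534) and NGLY1, a deglycosylating enzyme, start 51 bp apart in RefSeq and overlap over 7123 bp in GENCODE release 29, and NGLY1 was at 0.08 ± 0.07 (adjusted p = 0.392).

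LIPT2 (chr11:74491712-74493733) and POLD3, a subunit of DNA polymerase delta, start 118 bp apart in GENCODE release 29 but 98858 bp apart in RefSeq. POLD3 fell from 10.3 ± 0.555 to 6.75 ± 0.458 FPKM while LIPT2 did not pass. PALLD, an actin-binding protein gene that CBR4 (chr4:168863770-169010275) overlaps, was at -0.22 ± 0.09 and did not pass (adjusted p = 0.0814 in limma). The other genes of the pathway lie at chr6:33204642-33206831 for HSD17B8, chr1:29192873-29230942 for MECR, chr16:89088375-89164121 for ACSF3, chr22:43132206-43143394 for MCAT and chr16:23581002-23596356 for NDUFAB1, and no listed gene overlapped them or started within 1000 bp of them on the other strand. Of the 6 neighbouring genes 2 were higher and 1 lower, where 21.3% and 25.1% of all tested genes were.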

How the data were processed

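The authors deposited FPKM values for 16070 genes, from mRNA libraries that keep strand, per the labels' protocols. Trimmomatic, HISAT2, HTSeq, Cufflinks and GRCh38 are named in the submitters' processing notes, without roles or versions. The values were solved as whole fragments in Python 3.11.15 (pandas 2.3.3, numpy 2.4.6), with a tolerance of 0.001 fragments, which succeeded for 100% of 11745 tested genes and gave the library totals. Replicate pairs differed beyond counting noise (chi-square per degree of freedom 1.97 to 29.4).

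limma 3.58.1 (R 4.3.3, trend and robust, two-sided) was fitted to log2(FPKM + 1) of all 6 libraries for genes averaging 0.5 FPKM or more. The test was run on simulated libraries drawn independently and without any effect of gene length. That check therefore cannot speak to false calls from the length trend seen here. The 10 genes, 4 linked lists and tests were chosen with earlier results of these data known. Named genes are the 10, up to 4 passing genes with the smallest adjusted p in each linked list (2 with the highest mean if none passed), listed genes that overlap the 10 or start within 1000 bp on the other strand, FASN and ACACA. Loci are from GENCODE release 29 and promoters from RefSeq (GRCh38.p14). Alternatives were other pseudocounts, filters and scalings, the replicate number as a block, each library left out, control replicate 3 and 6p replicate 1 left out, each library's loess trend on gene length removed (span 0.5), and limma voom on the recovered fragments. Columns of per-sample values left unused numbered 0.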

Additional observations from a re-analysis of the deposited data

How the results depend on the processing

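Of 648 values of the 33 named genes under 20 alternatives, 618 kept direction and side of the threshold, 14 lost the call, 6 gained it and 10 changed sign. The cause of each change was not tested unless stated. After rescaling to TPM the higher genes numbered 2 of the 10, 1526 of all genes, 2 for iron-sulfur supply and 1 for malonyl and lipoyl handling. The lower genes there numbered 3991 of all genes, 14 for the lipoylated complexes and 2 for carrier protein partners. NDUFAB1, LIPT2 and NGLY1 turned to -0.083, -0.095 and -0.093. With the length trend removed, 2992 of all genes were higher and 3275 lower. There 1 of the 10 was lower, the lipoylated complexes had 2 higher, carrier protein partners 3 lower and malonyl handling 2 lower. NDUFAB1, LIPT2 and CBR4 turned to -0.23, -0.064 and 0.0073 in that fit. Without control replicate 3 and 6p replicate 1 together, 3 lipoylated complex genes and 10 iron-sulfur genes were higher and 2 carrier protein partners lower. In that fit 3555 of all genes were higher and 4187 lower. Higher genes of the lipoylated complexes numbered 3 with median recentring and 2 with upper-quartile scaling or quantile normalization. Over all genes 2872, 2688 and 2824 were higher in these 3 scalings. Lower iron-sulfur genes numbered 1 with recentring (2503 of all genes), and LIPT2 turned to -0.014 with quantile normalization. Filters of 1 and 5 FPKM, which test fewer genes, left 2 lower iron-sulfur genes, and the latter 0 higher lipoylated complex genes in limma, since AMT was not tested. Over all genes 2823 and 2057 were lower with these filters, and 1693 were higher with the filter of 5 FPKM.

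Same-numbered libraries did not deviate together (r = -0.57, 0.33 and -0.42 for numbers 1 to 3). With the replicate number as a block, 3 of the 10 genes were higher, 1774 genes were higher and 1920 lower, 5 lipoylated complex genes were lower, 1 iron-sulfur gene was lower and 2 malonyl genes were higher. ACSF3 lost its call (adjusted p = 0.0558 in limma).

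Leaving out 1 library at a time gave 3 to 5 of the 10 genes higher and 0 lower in limma. Over all genes 1724 to 2706 were higher and 1793 to 3378 lower. The lipoylated complexes had 1 to 3 higher and 4 to 9 lower, iron-sulfur supply 3 to 8 higher and 1 to 3 lower, carrier protein partners 1 to 2 lower and malonyl handling 2 to 4 higher. NDUFAB1 ran from -0.035 to 0.22 and LIPT2 from -0.054 to 0.061. Of the 10 genes, depth limits LIPT2, LIPT1 and OXSM most. Among other named genes, AMT had 17 to 38 fragments per control library and LYRM9 29 to 31.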

Other observations

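Of 6 tested cytosolic genes of fatty acid synthesis and its control, 1 was higher and 4 lower, with a median log2 fold change of -0.77, against 21.3% and 25.1% of all tested genes. The lower genes were SCD, the stearoyl-CoA desaturase (-2.01 ± 0.15), FASN (-1.90 ± 0.19), SREBF1, a transcription factor of lipid synthesis (-0.82 ± 0.09), and ACLY, which makes acetyl-CoA from citrate (-0.73 ± 0.13). The higher gene was MID1IP1, which encodes an activator of acetyl-CoA carboxylase. It read 9.42, 8.54 and 9.37 FPKM in control and 15.3, 16.2 and 15.8 FPKM in 6p, at 0.73 ± 0.07 (adjusted p = 0.000202 in limma). ACSS2, which makes acetyl-CoA from acetate, was at 0.10 ± 0.08 and did not pass (adjusted p = 0.355). These genes were named after their values were seen, except FASN.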
